A study of Rattus norvegicus with 48 samples.

Results

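A set of 42 genes, of 12029 measured in rat liver, had a lower level on a choline-deficient, cholesterol-rich diet than on its control diet at week 12 and a difference within narrow bounds at weeks 4 and 8. The 42 genes were chosen from these same values. CPM is the number of reads on a gene per 1000000 reads on all genes of an animal, and a gene entered with a mean of at least 1 CPM over the 48 animals. D is the mean log2(CPM+1) of the 8 animals on the deficient diet minus the mean of the 8 control animals, less the median of that difference over all 12029 genes of the week, and it is written D4, D8 and D12 for the 3 weeks. A gene was taken when D4 and D8 were between -0.5 and 0.5 and D12 was at most -1. In all, 874 genes had a D12 of at most -1.

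Male Wistar rats, bought at 6 weeks of age, were fed for 4, 8 or 12 weeks and the livers were sequenced, with 8 animals in each of the 6 groups. The CDAA groups received the choline-deficient L-amino acid-defined diet with 1% cholesterol, written CDDA in the labels, which also held more fat and less methionine than the control. The CSAA groups received the choline-supplemented L-amino acid-defined diet. No genetic change and no drug was involved. Each animal gave 1 library, with 13619274 to 22284359 reads counted on genes (median 18614479).

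Choline is used to make phosphatidylcholine, which hepatocytes need for membranes and to export triglyceride in very low density lipoprotein. Without it the liver stores fat, and in rats inflammation and fibrosis follow, so the diet serves as a model of non-alcoholic steatohepatitis (NASH). A CPM value is a share of the sequenced RNA, so it also changes when other RNA takes a larger or smaller share. In whole liver, fewer cells of a type and less RNA per cell cannot be told apart. The genes are listed by Ensembl identifier alone, so their functions, their cell types and the defining markers of liver cells were not examined here.

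The centring decided how large the difference at week 12 appeared. Most genes took a larger share of the reads on CDAA, and the medians subtracted for weeks 4, 8 and 12 were 0.33, 0.54 and 0.63 on the log2 scale. Before subtraction, the difference of the 42 genes at week 12 had a median of -0.44 (-0.99 to -0.37), and that at week 8 was above 0 in 42 of 42. As a ratio of CPM levels (with the added 1), CDAA stood at a median of 0.737 of CSAA at week 12 (0.504 to 0.776), and after centring at 0.475 (0.325 to 0.4997). On plain log2(CPM+1), the 8 CDAA animals lay below the 8 CSAA animals without overlap in 3 of 42 genes, where 4.38% of all genes did so. On levels centred within each animal this held for 40 of 42, and for 26.2% of all genes. It also held for 94.6% of the other 832 genes with a D12 of at most -1. The rule chose the genes by the centred difference at week 12, so the count on centred levels largely restates it.

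Within the set, D12 had a median of -1.07 and reached from -1.62 to -1.001. It was at or above -1.1 in 26 genes and below -1.3 in 8. D8 had a median of -0.36 (-0.49 to 0.03) and was below 0 in 41 of 42 genes, with 33 below -0.25. D4 had a median of -0.28 (-0.49 to 0.49) and was below 0 in 33. Most of the 42 genes were therefore already somewhat lower on CDAA than the median gene at the earlier weeks, by less than the bound.

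**Figure D1:**
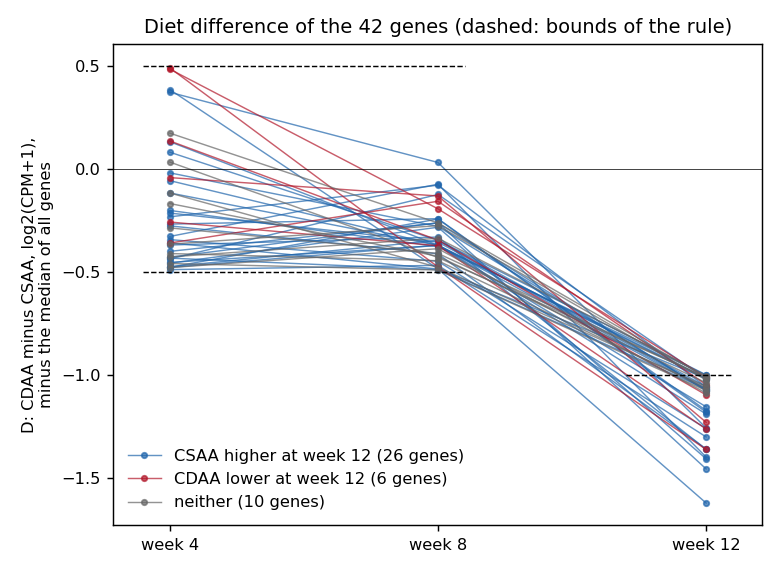
D of each of the 42 genes at weeks 4, 8 and 12 (y axis, log2 scale, centred on the median gene), with 1 line per gene coloured by which diet mean moved by at least 0.5 between weeks 8 and 12, and the bounds of the rule as dashed lines. At week 8 the genes lie between -0.49 and 0.03 with a median of -0.36, and at week 12 26 of them lie between -1.1 and -1.

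The bounds cut through a continuous range of values. The 3 genes nearest inside the D12 bound had -1.001, -1.002 and -1.005, and the 3 nearest outside had -0.992, -0.980 and -0.979. A further 34 genes met both early bounds with a D12 between -1 and -0.9. At week 8 the genes nearest inside the lower bound had a D8 of -0.492, -0.490 and -0.487, and the nearest outside had -0.504, -0.509 and -0.513. At week 4 the values were -0.490, -0.480 and -0.479 inside and -0.505, -0.509 and -0.539 outside. At the upper bound of week 4 they were 0.490, 0.484 and 0.385 inside and 0.502, 0.730 and 0.749 outside. The highest D8 in the set were 0.03, -0.07 and -0.08, far from the upper bound.

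Of the other 832 genes with a D12 of at most -1, 679 were below -0.5 at both earlier weeks, 120 only at week 8, 28 only at week 4, and 5 were above 0.5 at an earlier week. The choice of genes depended on the processing. TMM-scaled CPM (trimmed mean of M-values, which corrects for a shift in RNA composition) gave 40 genes, of which 27 were among the 42. Fold changes from limma-voom gave 48 genes with 25 of the 42, and removal of the trend with gene length gave 50 with 15 of the 42. Without the median subtraction 12 genes met the bounds and none was among the 42. A total of 8 genes were kept by TMM scaling, a pseudocount of 0.1, group medians, limma-voom, removal of the length trend, and without each and all of 4 animals that lay apart from their groups in earlier results (303 and 1102 on CDAA, 504 and 908 on CSAA).

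In most of the 42 genes the control animals moved more than the CDAA animals before week 12. From week 8 to week 12, each diet mean of log2(CPM+1) less the median change of all genes on that diet (-0.05 on CSAA, 0.08 on CDAA), the CSAA mean was higher by at least 0.5 in 26 of 42 genes, where 5.41% of all genes were. The CDAA mean was lower by at least 0.5 in 6 of 42, where 1.59% of all genes were. In 10 genes neither diet reached 0.5, and in 0 genes both did. The rule bounded the diet differences at weeks 8 and 12 and did not itself set how the change divided between the diets. Over all 12029 genes, however, the change had an SD across genes of 0.380 on CSAA and 0.253 on CDAA. Genes chosen for a low CDAA minus CSAA value at week 12 then tend to owe more of it to CSAA. The counts are therefore not independent of the choice and are given as a description without a test.

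The change on CSAA had a median of 0.58 (-0.38 to 1.33) and was above 0 in 41 of 42 genes. The change on CDAA had a median of -0.23 (-1.18 to 0.22) and was below 0 in 35. By the centring, 6014 of all 12029 genes lay above 0 on CSAA and 6014 below 0 on CDAA. The centred changes on CSAA and CDAA added up to more than 0 in 32 of 42. This held for 52.2% of all genes, whether or not CSAA rose and CDAA fell in them. On centred levels, all 8 CSAA animals of week 12 lay above all 8 of week 8 in 10 genes (3.79% of all genes), and all 8 CDAA animals of week 12 lay below all 8 of week 8 in 3 (1.09%). From week 4 to week 8 the change had a median of -0.05 (-0.38 to 0.63) on CSAA and -0.06 (-0.72 to 0.29) on CDAA. In the 6 genes with the lower CDAA mean at week 12, the CDAA change over these earlier weeks already had a median of -0.37 (-0.72 to 0.06). Taken from week 4 to week 12, the CSAA mean was higher by at least 0.5 in 22 genes (5.79% of all genes) and the CDAA mean lower by at least 0.5 in 9 (12.5% of all genes). The set is thus better described by its rule than as genes that fall on the deficient diet. At week 12 the rule asks for a diet difference at least 1 below that of the median gene.

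**Figure D2:**
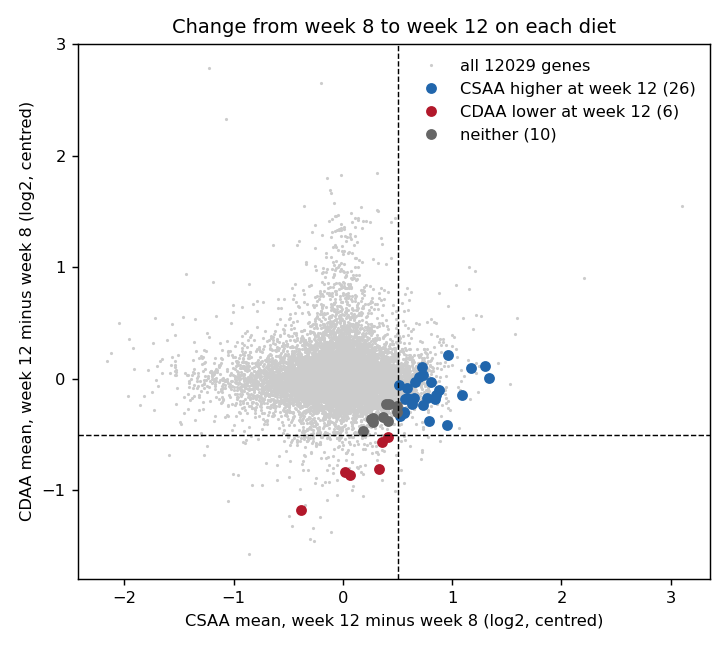
Change of the CSAA mean (x axis) and of the CDAA mean (y axis) from week 8 to week 12 on the log2 scale, each less the median change of all genes, for the 42 genes in colour and all 12029 genes in grey, with dashed lines at a rise of 0.5 and a fall of 0.5. Of the 42 genes, 26 lie right of the vertical line, 6 below the horizontal line and 10 between them.

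Among the other 832 genes with a D12 of at most -1, the CSAA mean was higher by at least 0.5 in 141 (16.9%) and the CDAA mean was lower by at least 0.5 in 73 (8.77%). A further 50 genes had the opposite pattern, a D12 of at least 1 and both early differences within 0.5. Their CDAA mean was higher by at least 0.5 in 39 (78%), where 3.75% of all genes were. Their CSAA mean was lower by at least 0.5 in 5 (10%), near the 10.3% of all genes. These sets were chosen by the same values, so no test was made between them.

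The 26 genes with the higher CSAA mean were averaged in single animals. Their mean level, centred on the median gene of each animal, on CSAA was 1.31 ± 0.136, 1.24 ± 0.134 and 2.06 ± 0.201 at weeks 4, 8 and 12 (SD, n = 8). On CDAA it was 0.944 ± 0.124, 0.871 ± 0.0854 and 0.721 ± 0.182. At week 12 the CSAA animals had a lowest, median and highest level of 1.68, 2.12 and 2.33, and all 8 lay above the highest CSAA animal of week 8, at 1.44, a separation that follows from how the 26 genes were split off. The lowest at week 12 was animal 908, followed by one at 1.88. The CDAA animals of week 12 had a median of 0.676 and a highest level of 0.949, and overlapped those of week 8, whose lowest, median and highest levels were 0.771, 0.851 and 1.01.

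In the 6 genes with the lower CDAA mean, CSAA animals kept a level of 1.09 ± 0.152, 1.01 ± 0.129 and 1.19 ± 0.218 at weeks 4, 8 and 12 (SD, n = 8). On CDAA the levels in this order were 1.05 ± 0.0700, 0.685 ± 0.142 and -0.143 ± 0.277. The CDAA animals of week 12 reached from -0.609 to 0.228, and the highest of them lay below the lowest of week 8, at 0.371. These genes were split from the others by the same values, so the separation is a description.

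**Figure D3:**
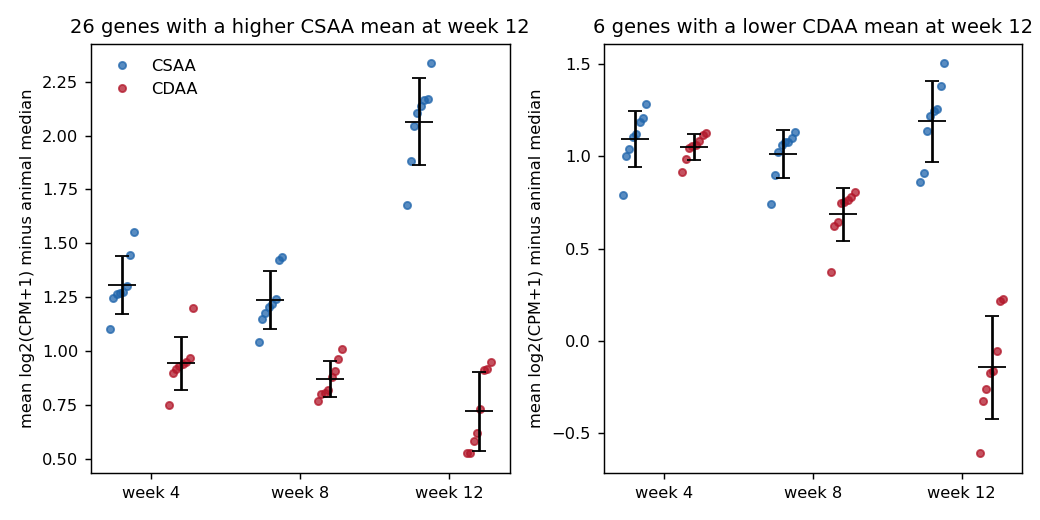
Mean centred level per animal (y axis, mean log2(CPM+1) of the genes minus the median of all genes in that animal) by week and diet, for the 26 genes with a higher CSAA mean at week 12 (left) and the 6 with a lower CDAA mean (right). Points are animals, bars are mean and SD with n = 8; the CSAA animals stand at 2.06 ± 0.201 at week 12 on the left, and the CDAA animals at -0.143 ± 0.277 on the right.

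The most abundant of the 42 genes was ENSRNOG00000016648, with a mean of 778 CPM. On CSAA its lowest, median and highest level was 585, 640 and 794 CPM at week 4, 506, 615 and 723 at week 8, and 561, 1131 and 1738 at week 12. On CDAA it was 547, 680 and 791 at week 4, 793, 833 and 1032 at week 8, and 598, 672 and 772 at week 12. At week 12, 7 of 8 CSAA animals lay above every CDAA animal, and the exception, animal 906 at 561 CPM, was followed by one at 1081. On CDAA all 8 animals of week 12 lay below all those of week 8, so this gene moved on both diets in opposite directions. Its D4, D8 and D12 were -0.33, -0.07 and -1.40. It was among the 8 genes kept by the settings named with that number. Without the median subtraction its D12 was -0.77. The gene with the lowest D12, ENSRNOG00000008591 and the gene with the second largest decrease on CDAA, all described below, were not among the 8.

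The gene with the lowest D12, at -1.62, was weakly expressed, with a mean of 5.98 CPM. On CSAA its lowest, median and highest level was 0, 3.13 and 6.91 CPM at week 4, 0.287, 5.77 and 10.2 at week 8, and 6.48, 11.2 and 21.999 at week 12. On CDAA it was 1.44, 4.87 and 8.19 at week 4, 0.458, 5.69 and 7.54 at week 8, and 0.8497, 6.00 and 7.65 at week 12. The CDAA medians stayed between 4.87 and 6.00, while 6 of 8 CSAA animals of week 12 lay above every CDAA animal of that week.

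ENSRNOG00000008591 had the largest decrease on CDAA. Its lowest, median and highest level on CDAA was 70.7, 95.1 and 112 CPM at week 4, 47.9, 77.6 and 86.8 at week 8, and 19.5, 29.0 and 72.5 at week 12, where 7 of 8 animals lay below all those of week 8. On CSAA it was 56.5, 66.95 and 77.9 at week 4, 54.4, 62.4 and 71.7 at week 8, and 33.4, 50.1 and 52.2 at week 12. The levels were thus lower at week 12 on both diets, and its D12 was -1.098. The gene with the second largest decrease on CDAA had 193, 305 and 411 CPM at week 4, 153, 212 and 248 at week 8, and 51.3, 127 and 170 at week 12. On CSAA its medians were 169, 198 and 200, with 1 animal of week 12 at 347.

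**Figure D4:**
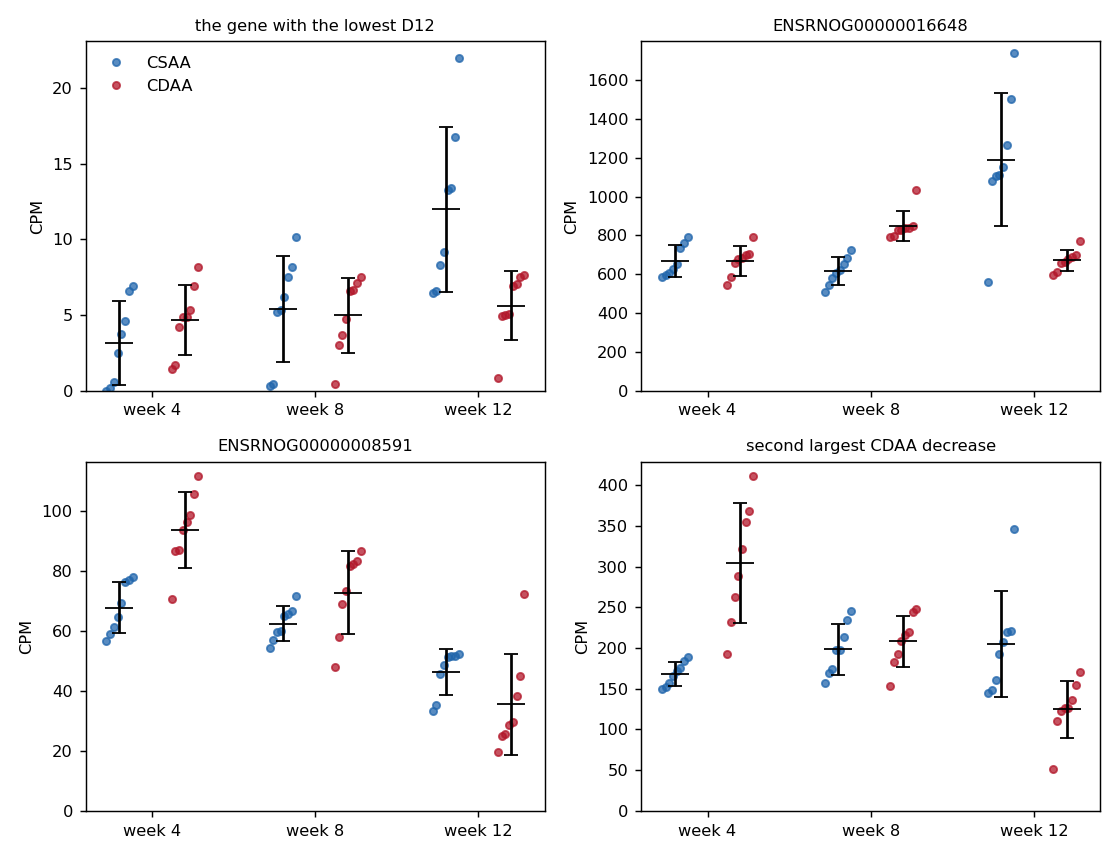
CPM per animal (y axis, linear, from 0) by week and diet for 4 of the 42 genes: the gene with the lowest D12, ENSRNOG00000016648, ENSRNOG00000008591 and the gene with the second largest decrease on CDAA. Points are animals, bars are mean and SD with n = 8; the upper pair shows high CSAA values at week 12 (medians 11.2 and 1131 CPM), and the lower pair low CDAA values (medians 29.0 and 127 CPM).

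The change over time averaged over both diets would not depend on the diet difference that chose the genes if both diets had the same spread. They did not. At week 12 the SD of log2(CPM+1) over the 42 genes had a median of 0.294 on CSAA and 0.206 on CDAA, and over all 12029 genes the change from week 8 to week 12 had an SD across genes of 0.380 on CSAA and 0.253 on CDAA. Genes chosen for a low CDAA minus CSAA value at week 12 then also tend to a higher average at that week, so the counts are not independent of the choice and are given as a description. In edgeR's quasi-likelihood test over 12756 genes, all 42 were tested. At a Benjamini-Hochberg adjusted p under 0.01, 16 of 42 rose from week 8 to week 12, where 10.2% of all genes tested did, and 1 fell, where 9.35% did. The log2 change was above 0 in 33 of 42, with a median of 0.24, beside a median of 0.04 over the 12029 genes. None of the 42 passed with a log2 change of 1 or more, where 0.282% of all genes tested rose and 0.125% fell by that much. Without animal 906, 15 rose and 1 fell, where 9.59% and 8.86% of all genes tested did.

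The log2 changes of the 16 genes that rose lay between 0.23 and 0.68, with a median of 0.41. All 16 were among the 26 with the higher CSAA mean, and the centred CDAA mean was lower at week 12 in 12 of them and higher in 4. The 26 were split off by the CSAA change, which is part of this average, so the overlap is largely built in. The gene with the strongest rise had 74.3 ± 14.9 CPM at week 8 and 163 ± 40.5 at week 12 on CSAA, and 85.8 ± 14.6 and 96.9 ± 17.5 on CDAA (SD, n = 8). Its log2 change averaged over the diets was 0.68 (SE 0.10).

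ENSRNOG00000016648 rose by 0.33 (SE 0.09), with a mean over both diets of 733 CPM at week 8 and 931 at week 12. It did not pass with limma-voom, nor in edgeR without the 4 animals named above. ENSRNOG00000008591 was the gene that fell, by 0.71 on the log2 scale (SE 0.11), from a mean over both diets of 67.7 to 40.9 CPM. The gene with the lowest D12 did not pass, at 0.69 with an SE of 0.37, nor did the second of the CDAA decreases, at -0.32 with an SE of 0.12.

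**Figure D5:**
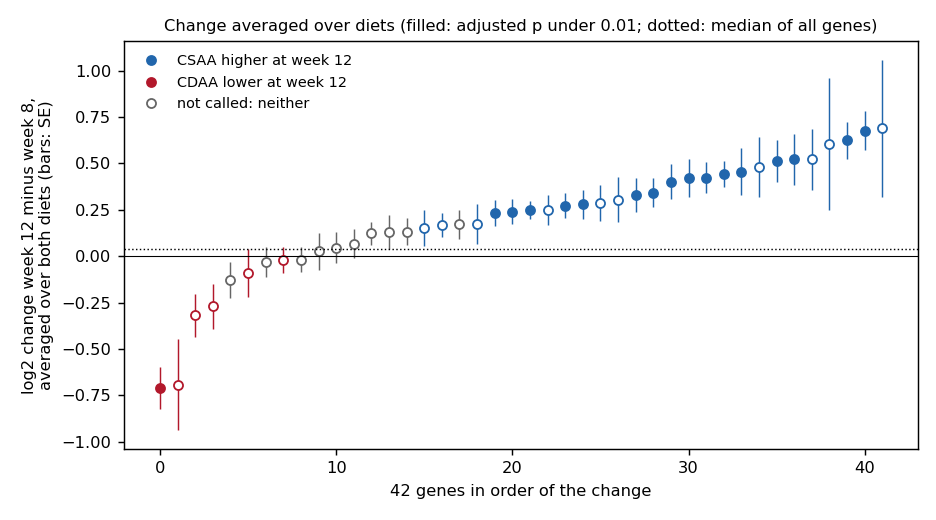
Log2 change from week 8 to week 12 averaged over both diets (y axis, bars are SE) for the 42 genes in order of the change, coloured by which diet mean moved by at least 0.5, filled where the adjusted p in edgeR was under 0.01, with the median of all genes dotted. The 16 filled points above 0 all belong to genes with a higher CSAA mean, and the 1 filled point below 0 to a gene with a lower CDAA mean. The diet changes that set the colours are part of the average shown, so this match is largely built in.

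From week 4 to week 8, 1 of 42 genes rose and 3 fell on average over the diets, where 8.93% and 16.3% of all genes tested did. From week 4 to week 12, 10 rose and 5 fell, where 24.3% and 24.9% did. These shares were below those of all genes, but for the rise from week 4 to week 12, which was near it. With library size alone in place of TMM factors, 19 rose from week 4 to week 12, where 35.5% of all genes tested did.

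For the contrasts that the rule used, the counts restate the choice of genes. The diet effect with an adjusted p under 0.01 and a log2 fold change of at least 1 was lower on CDAA at week 12 in 42 of 42 (11.3% of all genes tested). At week 4, 0 of 42 were lower (4.26%) or higher (15.7%), and at week 8, 0 of 42 were lower (12.1%) or higher (18.1%). With the library size alone in place of TMM factors, 1 of 42 was lower at week 12, where 2.44% of all genes tested were. The diet effect at week 12 was lower than at week 8 by the same thresholds in 14 of 42 (1.07%), and lower than at week 4 in 21 (2.74%). The difference between weeks 12 and 8 did not reach them in the other genes, although all 42 passed at week 12 and none at week 8.

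The level of the 42 genes had a median of 43.9 CPM (1.73 to 778), beside 16.0 for all 12029 genes, with 9 genes under 10 CPM, 22 between 10 and 100 and 11 at 100 or more. Their length, obtained by dividing CPM by RPKM (reads per kilobase and 1000000 reads), had a median of 2709 bp (1083 to 11957), beside 2267 bp for the 11892 genes with a length.

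How far the 42 genes varied together within groups, beside other genes, depended on the scaling. On CPM, over the 861 pairs of genes, the correlation of deviations from the group mean had a median of 0.117 in the 48 animals, beside 0.122 for pairs of all genes. On TMM-scaled CPM the medians were 0.216 and -0.00355. These points share libraries and depth, and the values are a description. Without the 4 animals the medians on CPM were 0.0980 and 0.0538. Among the 8 CDAA animals of week 12 the median was 0.309 for the 42 genes and 0.114 for all genes, and among the 8 CSAA animals of week 12 it was 0.145 and 0.0623. On CDAA at week 4, the group that holds animal 303, it was 0.0132, beside 0.284 for all genes. At week 8 it was 0.0711 beside 0.102 on CDAA and 0.162 beside 0.210 on CSAA. On CSAA at week 4 it was 0.151 beside 0.0428. The values per group are on CPM and were not computed with TMM scaling.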

How the data were processed

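Liver RNA of 48 rats was sequenced as stranded poly(A) libraries with single-end reads, and samples were grouped by the diet and week in the labels. The counts were made by the authors with STAR on the rat genome Rnor_6.0 and featureCounts per Ensembl gene, and were deposited without normalization. RPKM values (per kilobase of gene and sequencing depth) were computed and deposited by the authors as well. They were used for gene length and as an alternative. The number of columns belonging to no sample was 0.

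The sum of reads on genes served as the total for CPM, and the pseudocount was 1. All 48 animals entered a single edgeR fit (version 4.0.16, R 4.3.3) with TMM factors, robust quasi-likelihood and a coefficient for each diet and week. It covered the 12756 genes that reached 1 CPM in 5 or more animals of any group. Calls used an adjusted p under 0.01, with a log2 minimum of 1 for diet effects. On simulated counts of 12006 genes, edgeR recovered 92 of 100 genes changed from week 8 to 12 averaged over the diets, with 0 false calls. This share holds only for the kind and size of change planted in the simulation. It need not apply to log2 changes of 0.23 to 0.68, the range of the 16 genes that rose, nor to changes on 1 diet only. Alternatives were limma-voom (limma 3.58.1), DESeq2 1.42.0, other scalings, pseudocounts, filters and bounds, group medians, RPKM and leaving out animals. No 2 libraries of a group agreed within sampling noise.

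Members, lists and tests were chosen with earlier results of these data known. Genes were to be named by lowest D12, highest CPM, largest change on either diet, called change over weeks, closeness to a bound or presence in a list, with at most 2 identifiers printed. The 2 identifiers and the genes described without one were picked from these after their values were seen. No identifier was paired with a name in the tables used here (0 matched), so pathway lists, marker lists, neighbours, promoters and sequences were not analysed here. The labels name no sequencing batch per animal, and none was modelled.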

Additional observations from a re-analysis of the deposited data

Results flagged for a closer look

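In 42 groups of 8 values (the mean levels and the 4 genes shown), 5 had 1 animal far from the other 7, where chance gives 2.1. The mean centred level of the 42 genes was 1.46 in animal 303 on CDAA at week 4, with the next at 1.21. The level of the 6 genes with the lower CDAA mean was 0.371 in animal 707 on CDAA at week 8, with the next at 0.620. The gene with the lowest D12 stood at 0.8497 CPM in animal 1101 on CDAA at week 12, with the next at 4.92 CPM. ENSRNOG00000016648 stood at 1032 CPM in animal 706 on CDAA at week 8, with the next at 846 CPM. The gene with the second largest decrease on CDAA stood at 347 CPM in animal 905 on CSAA at week 12, with the next at 221 CPM.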

How the results depend on the processing

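The number of genes was 42. It was 27 with a pseudocount of 5, 26 with RPKM, 12 without the median subtraction, 5 with D4 and D8 within 0.3 and 1 with D12 at most -1.5. Of the 42, 8 were kept with a pseudocount of 5, 15 with RPKM, and 3 of 32 without a filter on low values. Without 1 of animals 303, 504, 908, 1102 and 906 the number was 34 to 49, with 32 to 41 of the 42 kept. Leaving out animal 906, the removal of the length trend and changes without centring were chosen after seeing the data, and the change from week 4 to 12 was listed as an alternative then. With library size alone in place of TMM factors, the genes higher and lower on average over the diets were 3 and 0 from week 4 to 8 (21.4% and 3.66% of all genes tested), and 19 and 3 from week 4 to 12 (35.5% and 15.5%). In the same setting the diet effect was higher at week 4 in 1 gene (23.3%) and lower at week 12 in 1 (2.44%), and the diet effect was lower at week 12 than at week 8 in 5 (0.274%) and than at week 4 in 5 (0.737%). In these comparisons the scaling is the only change. Where the diet means were counted, 22 to 28 of the 42 genes had the higher CSAA mean and 4 (changes not centred) to 9 (week 4 to 12) the lower CDAA mean. They were not counted with a pseudocount of 5, RPKM, other filters on low values or limma-voom. Across all fits, 13 to 18 rose and 1 fell from week 8 to 12 averaged over the diets. The median correlation lay between 0.0980 and 0.216 in the 8 settings where it was computed. No D12 or averaged log2 change of the 4 genes shown changed sign. With library size alone the calls from week 4 to 8 turned from mostly lower to higher, and without the median subtraction D8 turned from below 0 in 41 genes to above 0 in 42. Depth limits the 9 genes under 10 CPM most, and counting error was not separated from the spread between animals.
No paired analysis was possible because the replicate numbers are animal numbers that occur in 1 group each.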
